A study of Mus musculus with 7 samples.

Results

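Complement is a cascade of plasma and tissue proteins that tags surfaces for removal. In the classical branch C1q, built of chains from C1qa, C1qb and C1qc, binds a target and leads to the cleavage of C4 and then of C3, the component on which all branches converge. Fragments of C3 and C5 signal through the receptors C3ar1 and C5ar1, and fragments fixed on a surface are bound by complement receptor 3, the integrin pair of Itgam and Itgb2. In the brain, microglia are the main source of C1q and carry these receptors, and complement is known for its part in the removal of synapses by microglia in mouse models of amyloid deposition.

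The 9 genes C1qa, C1qb, C1qc, C4b, C3, C3ar1, C5ar1, Itgam and Itgb2 were chosen by name as components and receptors of complement, by a rule that used none of their values though earlier results of these data were known, and all 9 were among the 20859 genes of the count table. They were described in cortex and hippocampus of 3 groups of mice, in a study that asked what targeting CD38, a surface enzyme that consumes NAD, changes in mice that model Alzheimer's disease. FAD CD38 mice carried the FAD model and belonged to the CD38 arm (7 mice in each region), FAD IgG mice carried the FAD model and had the control IgG (7 mice in each region), and WT mice had PBS (9 cortices and 8 hippocampi). The labels name neither the FAD transgenes, nor the CD38 agent or its dose, and give no age, sex or background strain. Genotype and injection cannot be told apart in any comparison with WT, since WT mice had PBS and FAD mice the IgG or the CD38 agent. One further mouse, called CD38 in the sample sheet and IgG in its well names, was kept out of the groups.

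The assay, mcSCRB-seq, tags the 3' end of transcripts from bulk tissue, and each well is 1 region of 1 mouse. Wells held 1270918 to 5101368 counts, and values are given as CPM, the counts scaled to the same total in every well. Ribosomal RNA took 3.28% to 27.0% of the counts. Known marks of the model went with the labels: Trem2, a microglial lipid receptor, rose in FAD IgG hippocampus (log2 fold change 3.03) and cortex (2.96), and Gfap, the astrocyte filament, rose by 2.74 and 3.39 in the same order. Thy1, which drives the transgenes of common FAD lines, also rose (2.52 and 2.21), and Cd38 did not pass the test in any comparison. Hippocampal markers had summed levels of 268 to 786 CPM in hippocampus and 109 to 203 CPM in cortex. In bulk tissue, fewer or more cells of a type and less or more RNA per cell cannot be told apart.

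C1qb, C1qc and C1qa follow each other on mouse chromosome 4, in that order and on the same strand, with no other protein-coding gene between them in the M21 annotation of GRCm38. Because these genes changed together, the stretches before the gene starts were read for 4 short motifs, for the 6 of 9 members with an entry in a RefSeq table (GRCm38.p6, 250 bases before the start). GAGGAA, the core that Spi1 (PU.1, the factor of myeloid identity) binds, lay on either strand in 3 of these 6 windows, those of C1qb, C1qc and Itgam, and in 23.3% of 32841 windows of the same length. Shown 5′ to 3′ are C1qb (minus strand, chr4:136886201-136886450) and Itgam (plus strand, chr7:128062390-128062639), which hold the core, and C3 (minus strand, chr17:57228137-57228386), which does not, and the capitals mark GAGGAA or its reverse complement.
C1qb: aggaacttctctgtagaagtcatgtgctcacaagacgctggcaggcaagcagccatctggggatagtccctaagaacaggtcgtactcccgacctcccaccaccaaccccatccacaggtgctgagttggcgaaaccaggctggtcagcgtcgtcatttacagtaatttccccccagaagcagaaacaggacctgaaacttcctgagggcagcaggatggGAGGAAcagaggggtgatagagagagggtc
Itgam: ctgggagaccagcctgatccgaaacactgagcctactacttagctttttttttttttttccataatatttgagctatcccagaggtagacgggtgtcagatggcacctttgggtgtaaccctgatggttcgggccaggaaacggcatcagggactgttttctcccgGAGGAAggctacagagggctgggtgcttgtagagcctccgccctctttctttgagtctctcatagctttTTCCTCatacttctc
C3: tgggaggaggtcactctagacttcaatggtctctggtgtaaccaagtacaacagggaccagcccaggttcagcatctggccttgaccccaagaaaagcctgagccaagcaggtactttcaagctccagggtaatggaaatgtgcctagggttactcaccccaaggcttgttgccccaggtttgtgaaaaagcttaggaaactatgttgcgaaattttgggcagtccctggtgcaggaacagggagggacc
In the C1qc window 151 of the 250 bases lie in exons of the gene itself, as do 28 in that of C5ar1 and 4 in that of C3ar1, so these are not all upstream sequence. The core began 30 bases before the start in C1qb, and 84 and 15 bases before it in Itgam, overlapping no match of the other motifs. A motif of the interferon-response type (GAAA and GAAA with 2 bases between them) was in 0 of 6 member windows and 2.98% of all windows. One of the STAT type (TTCNNNGAA) was in 0 of 6 and 7.02%, and one of the NF-kB type (GGG and CC with 5 bases between them), all read on both strands, was in 5 of 6 and 45.8%. These are matches of letters only, and nothing in the data measures binding there.

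The first comparison asked what the FAD model changes, with IgG-injected FAD mice set against WT mice. In hippocampus all 9 genes rose, and in cortex all 8 that had enough counts for the test rose, by edgeR's quasi-likelihood test with Benjamini-Hochberg adjustment. Over all genes tested, 4.48% rose in hippocampus and 3.34% in cortex at the same adjusted p of 0.05. In hippocampus C3, C3ar1 and C5ar1 passed the filter on low counts only through FAD wells, as WT wells reached 1.57, 2.58 and 1.89 CPM. C5ar1 in cortex did so too, with WT wells up to 1.86 CPM. Without higher FAD wells these would not have been tested. With no filter 9 of 9 members rose in each region. The median log2 fold change of the members was 2.30 in hippocampus and 2.13 in cortex, where the median of all genes tested was 0.00 and 0.01. Every FAD IgG well lay above every WT well for 9 of 9 genes in hippocampus (2.95% of all genes tested) and for 8 of 9 in cortex, the exception being Itgam. In cortex 1.89% of all genes tested did so, a set that C3 is not part of.

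**Figure D1:**
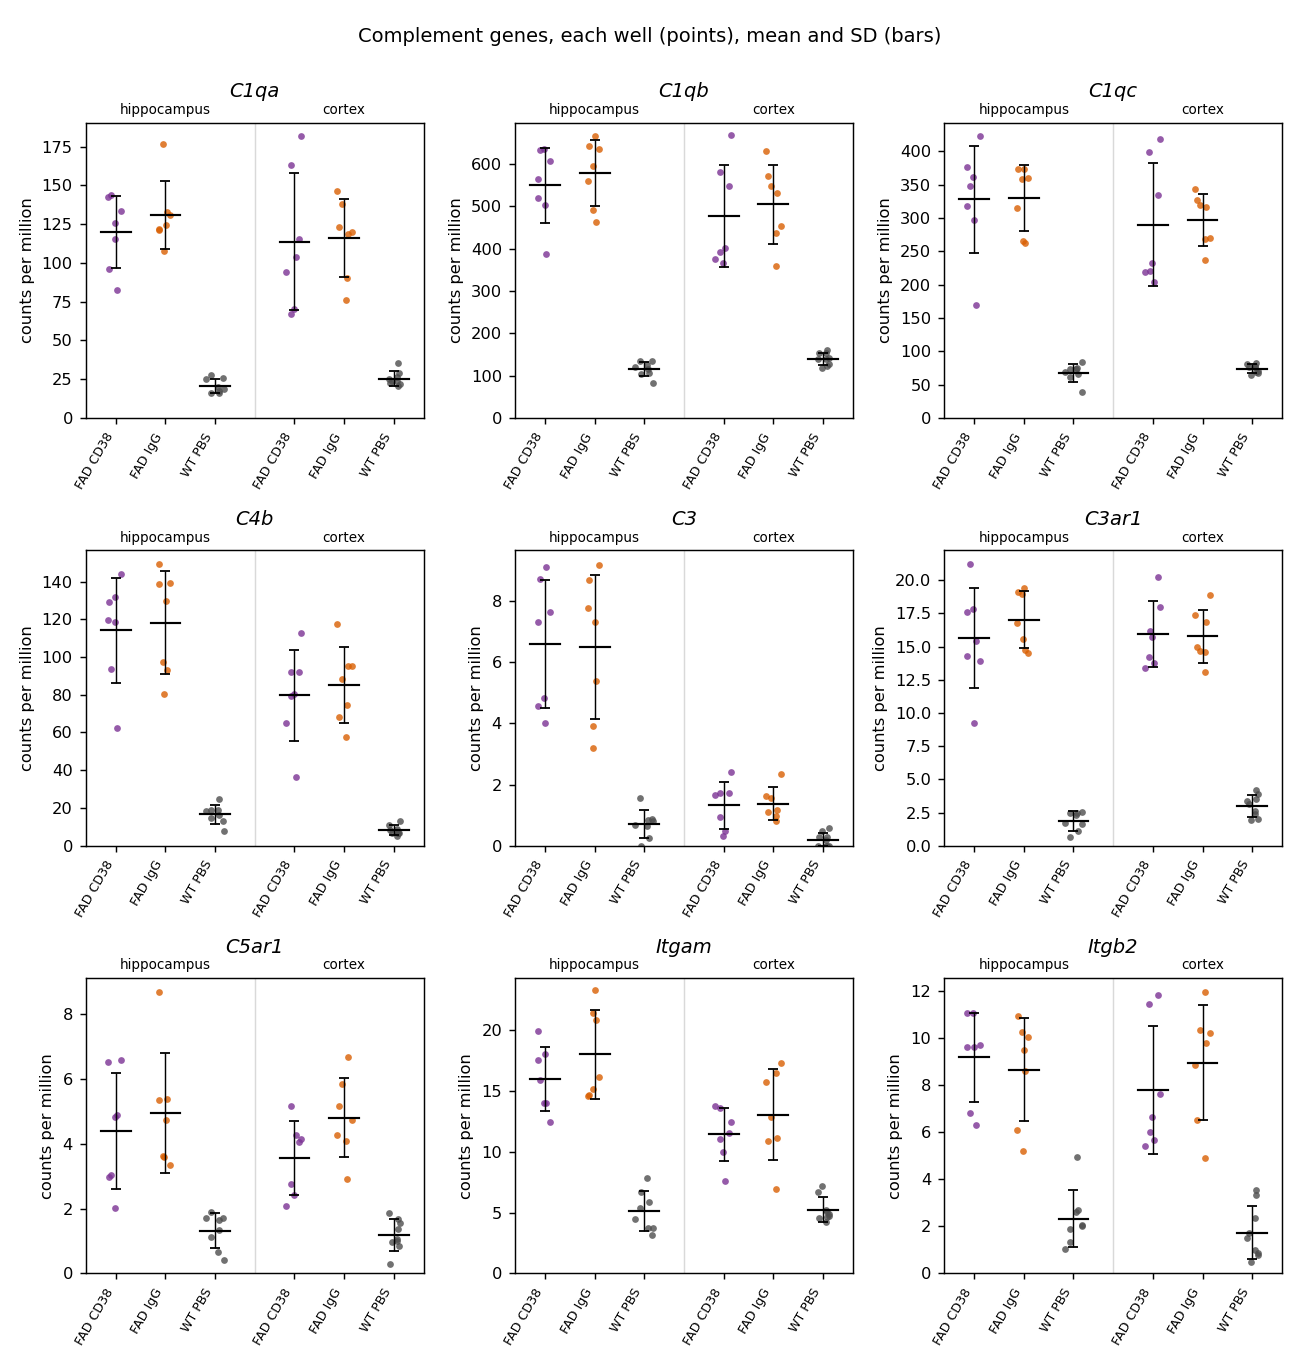
CPM of the 9 genes in every well (points) of hippocampus (left) and cortex (right), for FAD CD38, FAD IgG and WT PBS mice, with the mean (line) and SD (bars). The wells of the 2 FAD groups overlap for every gene, and lie above the WT wells except for some wells of Itgam and C3 in cortex.

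The C1q chains are the recognition part of the first complement complex. C1qa ran from 107 to 177 CPM in FAD IgG hippocampi (median 124), against 15.9 to 27.7 CPM in WT hippocampi (median 19.4). In cortex it ran from 75.8 to 146 CPM in FAD IgG mice (median 119.6), against 20.9 to 35.7 CPM in WT mice (median 23.9). No FAD well came near a WT well in either region. The log2 fold change of C1qa was 2.63 ± 0.17 (SE, adjusted p = 2.0e-09) in hippocampus and 2.25 ± 0.17 (adjusted p = 9.0e-10) in cortex.

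C1qb and C1qc rose alongside it. C1qb ran from 463 to 665 CPM in FAD IgG hippocampi (median 594), against 83.2 to 135 CPM in WT (median 118), and from 358 to 631 CPM in FAD IgG cortices (median 531), against 118 to 159.9 CPM in WT (median 140.1). C1qc ran from 263 to 374 CPM in FAD IgG hippocampi (median 359), against 39.5 to 83.3 CPM in WT (median 71.1), and from 237 to 343 CPM in FAD IgG cortices (median 316), against 64.5 to 82.7 CPM in WT (median 76.4). For both genes the lowest FAD well stood well clear of the highest WT well. The log2 fold change was 2.30 ± 0.13 in hippocampus and 1.86 ± 0.13 in cortex for C1qb, and 2.26 ± 0.16 and 2.01 ± 0.14 for C1qc.

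The share of C1q counts that fell on C1qa was 12.7% ± 2.09 (SD, n = 7) in FAD IgG hippocampi and 10.3% ± 1.88 (n = 8) in WT, and 12.6% ± 1.13 (n = 7) in FAD IgG cortices against 10.6% ± 1.29 (n = 9) in WT. These ranges overlapped, and the difference was not tested. C1qb, the chain with the smallest fold change of the trio in cortex, took 54.8% ± 1.07 of C1q counts in FAD IgG cortices and 58.4% ± 1.5 in WT. Its ranges in FAD IgG and WT cortices did not overlap (53.4% to 56.3% against 56.9% to 60.8%), but that of FAD CD38 cortices (50.9% to 57.7%) overlapped WT. In hippocampus the ranges of FAD IgG and WT overlapped (52.6% to 57.2% against 55.3% to 58.7%), and this difference was not tested either.

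C4b encodes the C4 component cleaved after C1q has bound, and is also known as a gene that reactive astrocytes and oligodendrocytes switch on. It had the largest fold change of the tested members in cortex. There it ran from 57.4 to 117 CPM in FAD IgG mice (median 88.2), against 5.25 to 13.3 CPM in WT mice (median 6.73), a log2 fold change of 3.43 ± 0.22 (adjusted p = 2.46e-10). In hippocampus it ran from 80.3 to 149 CPM (median 129.7), against 7.82 to 24.8 CPM in WT (median 17.4), a log2 fold change of 2.84 ± 0.21 (adjusted p = 1.05e-08). Its near-copy C4a, which the table lists separately, rose too (3.04 ± 0.28 in hippocampus, 2.84 ± 0.33 in cortex). The last 500 bases of the full-length C4a and C4b transcripts are 98% identical, so how 3' reads were divided between them is uncertain. Of the 451 stretches of 50 bases in that end of C4a, 38.1% also occur in C4b, and the others tell the 2 apart. C4a held 10.7% ± 1.11 of the counts of both in FAD IgG hippocampi and 10.7% ± 5.41 in WT, and 8.47% ± 2.41 in FAD IgG cortices and 12.7% ± 3.85 in WT.

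C3, the central component, had the fewest counts of the members in cortex and in WT hippocampus, and C5ar1 had fewer in FAD hippocampus. It had 8 to 35 counts per FAD IgG hippocampus and 0 to 7 per WT hippocampus. This was 3.20 to 9.20 CPM (median 7.33) in FAD IgG, against 0 to 1.57 CPM (median 0.753) in WT, and a log2 fold change of 3.22 ± 0.37 (adjusted p = 4.89e-06). In cortex it reached 2 to 7 counts per FAD IgG well and 0 to 2 per WT well, with 4 of 9 WT wells at 0, and it did not pass the filter on low counts. The FAD IgG cortices had 0.820 to 2.36 CPM (median 1.18), against 0 to 0.572 CPM (median 0.202) in WT, and the ranges did not overlap. With no filter, C3 in cortex had a log2 fold change of 2.74 ± 0.58 (adjusted p = 0.00196).

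C3ar1, the receptor of the C3a fragment, had the higher fold change of the pair that senses cleaved fragments, a difference that was not tested, and C5ar1, the receptor of C5a, rose too. C3ar1 ran from 14.5 to 19.4 CPM in FAD IgG hippocampi (median 16.8), against 0.629 to 2.58 CPM in WT (median 2.0), and from 13.1 to 18.9 CPM in FAD IgG cortices (median 14.9), against 1.92 to 4.19 CPM in WT (median 3.13). Its log2 fold change was 3.19 ± 0.25 (adjusted p = 1.90e-08) in hippocampus and 2.37 ± 0.17 (adjusted p = 4.23e-10) in cortex. C5ar1 was low in all groups, at 3.34 to 8.69 CPM in FAD IgG hippocampi (median 4.74), against 0.412 to 1.89 CPM in WT (median 1.5). In cortex it had 2.91 to 6.66 CPM in FAD IgG mice (median 4.72), against 0.285 to 1.86 CPM in WT mice (median 1.05). The C5ar1 groups lay apart in both regions, with a log2 fold change of 1.85 ± 0.33 (adjusted p = 0.000782) in hippocampus and 2.02 ± 0.29 (adjusted p = 3.24e-05) in cortex.

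Itgam and Itgb2, the alpha and beta subunits of complement receptor 3, rose as well. Itgam had the smallest fold change of the members in both regions, at 1.77 ± 0.20 (log2, adjusted p = 3.65e-06) in hippocampus and 1.38 ± 0.20 (adjusted p = 3.42e-05) in cortex. It ran from 14.6 to 23.3 CPM in FAD IgG hippocampi (median 16.2), against 3.15 to 7.85 CPM in WT (median 4.92). In cortex it ran from 6.97 to 17.3 CPM in FAD IgG mice (median 12.8), against 4.21 to 7.22 CPM in WT mice (median 4.86), and 6 of 7 FAD IgG wells lay above the highest WT well.

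Itgb2, a subunit that other leukocyte integrins share, ran from 5.19 to 10.9 CPM in FAD IgG hippocampi (median 9.48), against 1.03 to 4.96 CPM in WT (median 2.03). In cortex it ran from 4.92 to 12 CPM in FAD IgG mice (median 9.80), against 0.481 to 3.55 CPM in WT mice (median 1.49). The groups did not overlap, but the gap was narrow in hippocampus, where 1 WT well stood far above the other WT wells. The log2 fold change was 1.94 ± 0.23 (adjusted p = 8.56e-06) in hippocampus and 2.26 ± 0.32 (adjusted p = 2.62e-05) in cortex.

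**Figure D2:**
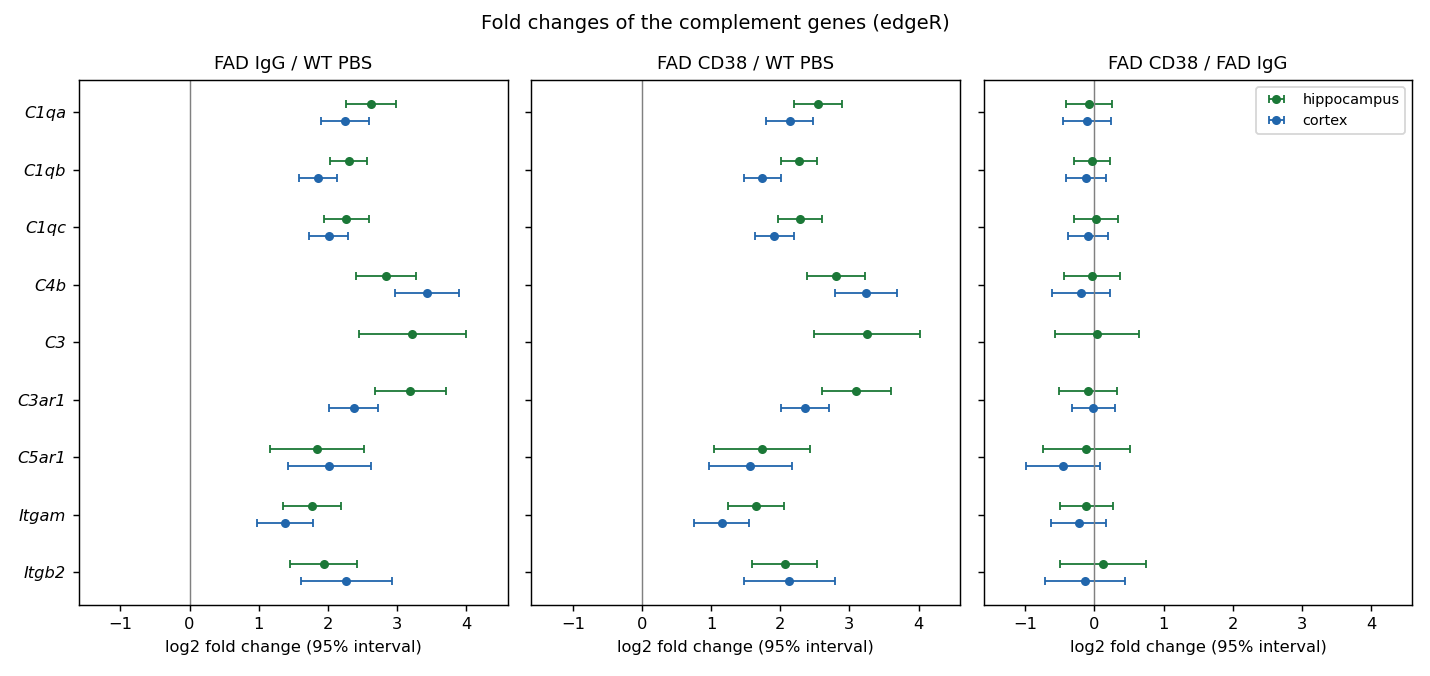
Log2 fold changes (points) with 95% intervals (bars) of the members in hippocampus and cortex, for FAD IgG over WT, FAD CD38 over WT and FAD CD38 over FAD IgG. C3 was not tested in cortex. Against WT the members lie between 1.15 and 3.43, and all intervals of FAD CD38 over FAD IgG include 0.

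The direction of each member was the same within the library pools, the batch named by the labels. In the 6 pools that held both groups, every member was higher in FAD IgG than in WT in 6 of 6 pools, in both regions. Where every FAD IgG well lies above every WT well, as for all but Itgam in cortex, this follows almost by itself. It is no further support there, and no share over all genes stands beside it. The smallest difference within a pool was 0.64 (log2 CPM), for C5ar1 in cortex, and the largest was 4.08, for C4b in cortex.

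Microglia markers moved with these genes. Of 12 markers of resident microglia, 11 rose in hippocampus and 9 in cortex of FAD IgG mice, with a median log2 fold change of 1.26 and 1.09. Their summed level was 441 to 655 CPM in FAD IgG hippocampi and 202 to 277 CPM in WT, and 439 to 704 CPM in FAD IgG cortices and 214 to 311 CPM in WT. Each member was therefore also set against the mean log2 CPM of these 12 markers in its own well, as a description with no test. For C1qa, C1qb, C1qc, C4b and C3ar1 every FAD IgG well stayed above every WT well in both regions on this relative scale, as did 0.589% of all genes tested in hippocampus and 0.424% in cortex. The median relative level of C4b was higher by 1.63 (log2) in FAD IgG hippocampi and by 2.23 in FAD IgG cortices, that of C3ar1 by 1.53 and 1.16, and that of C1qa by 1.42 and 1.24.

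The remaining members overlapped on that scale. Itgam was above the highest WT well in 4 of 7 FAD IgG hippocampi and 1 of 7 cortices, C5ar1 in 2 and 5, and Itgb2 in 0 and 4. C3 was above it in 6 of 7 hippocampi and 1 of 7 cortices. For genes of few counts this scale understates a difference, because a prior count of 2 is added before the logarithm.

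**Figure D3:**
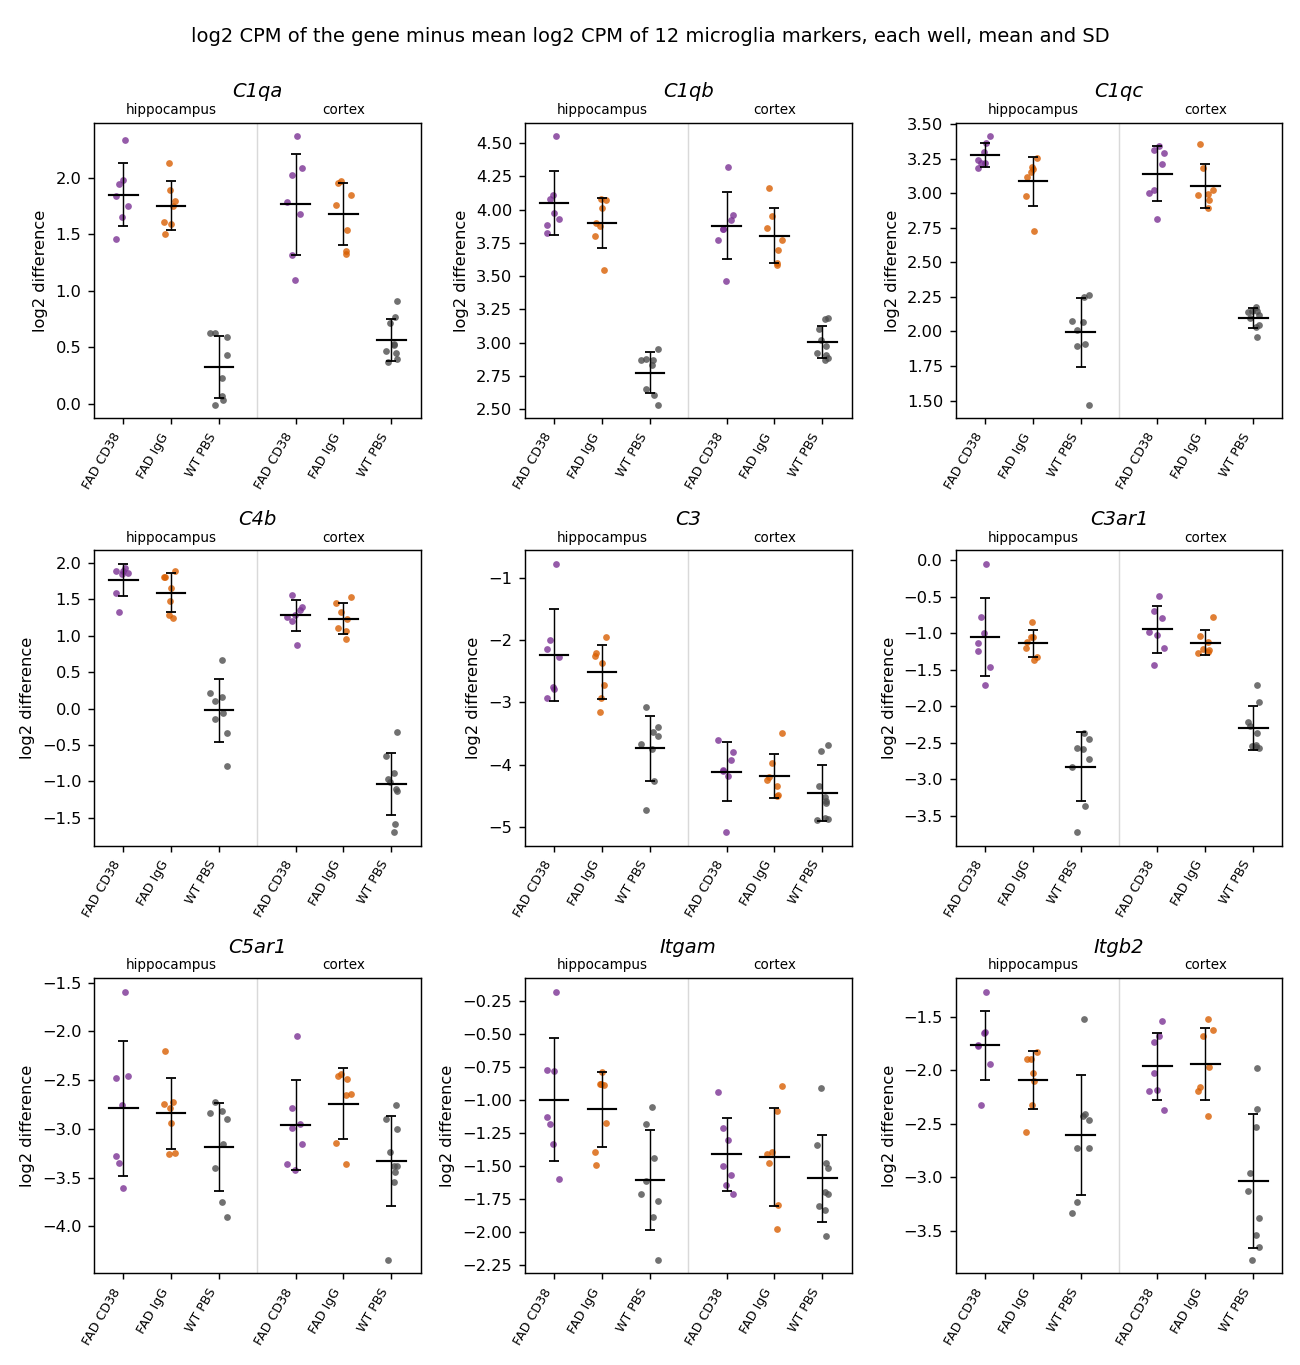
Log2 CPM of each member minus the mean log2 CPM of 12 microglia markers in the same well (points), with the mean and SD of FAD CD38, FAD IgG and WT PBS mice in hippocampus (left) and cortex (right). C4b, C3ar1 and the C1q chains stay apart from WT, and Itgam and Itgb2 overlap with it.

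Markers of other cells that could carry complement genes were read as well. Of 9 astrocyte markers, a list without Gfap, 4 rose in hippocampus and 1 in cortex of FAD IgG mice, with a median log2 fold change of 0.33 and 0.06. Gfap itself, a gene of reactive astrocytes, had the values given above (2.74 and 3.39), which exceed the median of the members in both regions. Oligodendrocyte markers passed the test in neither region (0 of 7 in each), with a median log2 fold change of 0.27 in hippocampus and 0.09 in cortex. Of the neutrophil markers 4 of 9 were in the table, summing to 0.279 to 0.862 CPM in FAD IgG hippocampi and 0 to 1.07 CPM in WT, and to 0.196 to 2.99 CPM in FAD IgG cortices and 0.260 to 3.42 CPM in WT. Of the monocyte markers 2 of 4 were in the table, and they summed to 3.20 to 11.5 CPM in FAD IgG hippocampi and 3.71 to 9.16 CPM in WT. In cortex these summed to 5.51 to 11.1 CPM in FAD IgG mice and 5.52 to 12.3 CPM in WT mice. The 7 markers of border macrophages summed to 6.46 to 12.9 CPM in FAD IgG hippocampi and 5.09 to 10.9 CPM in WT, and to 15.5 to 18.9 CPM in FAD IgG cortices and 11.2 to 16.9 CPM in WT. Of the lymphocyte markers 8 of 9 were in the table, of which Cd79a was at 0 in every WT hippocampus. Their sum was 3.45 to 9.93 CPM in FAD IgG hippocampi and 0 to 2.89 CPM in WT. In cortex it was 4.21 to 11.8 CPM in FAD IgG (median 6.98) and 3.14 to 10.8 CPM in WT (median 8.55). The part of these cells in the members' levels was not tested.

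Of 50 further complement genes, 36 were in the table. In hippocampus 19 had enough counts to be tested, of which 4 rose and 0 fell, and in cortex 21, of which 3 rose and 0 fell. The lists were the other classical, lectin, alternative and terminal components, other receptors and the regulators. C4a has been given above. Itgax, the alpha subunit of complement receptor 4 and a mark of plaque-associated microglia, had 4.39 to 8.62 CPM in FAD IgG hippocampi against 0 to 0.412 CPM in WT, and 4.10 to 17.3 CPM in FAD IgG cortices against 0 to 0.419 CPM in WT. It passed the test in both regions, and no fold is given because WT hippocampi held 2 counts in all and WT cortices 3.

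Serping1, the inhibitor of the C1 proteases, rose in hippocampus (1.49 ± 0.21, log2 fold change, adjusted p = 4.18e-05) and in cortex (0.91 ± 0.26, adjusted p = 0.0477), with 21.9 to 41.5 CPM in FAD IgG hippocampi against 5.35 to 20.3 CPM in WT. The difference between regions did not pass for Serping1 (adjusted p = 0.479 by limma voom). Against the same WT wells, FAD CD38 mice had 4 of 19 further genes higher in hippocampus, C4a, Itgax and Serping1 among them, and 2 of 21 in cortex (C4a and Itgax), and 0 of them differed between FAD CD38 and FAD IgG mice.

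Genes that share a fold or a family with the members without being complement genes were counted as well. Of 8 genes with a C1q domain outside complement that were tested in hippocampus 0 rose and 1 fell, C1qtnf4 (-0.37 ± 0.11, adjusted p = 0.0466), and of 7 in cortex 0 changed. Of the other integrin genes, Itgb5, Itgb1 and Itga6 rose among 6 tested in hippocampus, and Itgb5 and Itgb1 among 7 in cortex, by 0.44 to 1.12 on the log2 scale.

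The second comparison asked whether the CD38 arm differed from the IgG arm within FAD mice. No gene of the 12728 tested in hippocampus or the 12968 in cortex passed (0% in each), and so 0 of 9 and 0 of 8 members did. At an unadjusted p under 0.05 there were 197 and 195 genes, none of them a member. DESeq2 also called 0 (158 and 152 genes at an unadjusted p under 0.05), as did limma voom with quality weights (1057 and 335). In hippocampus the members' log2 fold changes lay between -0.12 (Itgam) and 0.12 (Itgb2), and in cortex between -0.45 (C5ar1) and -0.02 (C3ar1).

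The intervals show what size of difference these mice could have hidden. For C1qb the 95% interval ran from -0.30 to 0.23 in hippocampus and from -0.41 to 0.16 in cortex, and for C4b from -0.44 to 0.38 and from -0.62 to 0.23. The widest were those of C5ar1, from -0.74 to 0.51 in hippocampus and from -0.99 to 0.08 in cortex, and of Itgb2, from -0.50 to 0.75 and from -0.71 to 0.44. C5ar1 in cortex had the largest estimate, with 2.09 to 5.18 CPM in FAD CD38 mice (median 4.04) against 2.91 to 6.66 CPM in FAD IgG mice (median 4.72). With the mean of both regions, where FAD IgG mice had 9 of 9 members above WT (5.93% of all genes), the estimates of FAD CD38 against FAD IgG were -0.10 ± 0.14 for C1qa, -0.09 ± 0.10 for C1qb, -0.10 ± 0.14 for C4b and -0.27 ± 0.21 for C5ar1.

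Wells of the CD38 arm had a larger coefficient of variation than those of the IgG arm for the C1q chains. C1qa ran from 67.0 to 182 CPM in FAD CD38 cortices (median 103.8), against 75.8 to 146 CPM in FAD IgG cortices (median 119.6), with a coefficient of variation of 38.8% against 21.5%. For C1qc it was 31.7% against 13%, and for C1qb 25.3% against 18.4%. In hippocampus it was 19.4% against 16.7% for C1qa, 16.1% against 13.5% for C1qb and 24.7% against 14.9% for C1qc. Itgam went the other way in cortex (19.0% against 28.4%) and in hippocampus (16.7% against 20.5%). So did C3 (31.8% against 36.2%) and Itgb2 (20.8% against 25.4%) in hippocampus. In every other case the coefficient was larger in the CD38 arm. The lowest FAD CD38 hippocampus was the same well for every C1q chain, at 82.6 CPM of C1qa, 386 of C1qb and 169 of C1qc. That well held 1428454 counts, 19.3% of them ribosomal RNA, and the cortex of the same mouse was the lowest for C1qc. Neither the difference in spread nor the part of this mouse in it was tested. For every member the wells of the 2 FAD groups overlapped in both regions, and 0.0393% of all genes tested in hippocampus and 0.0231% in cortex lay apart. Adding the microglia marker level of the well to the fit left 0 members called in either region.

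Set against WT mice, FAD CD38 mice had 9 of 9 members higher in hippocampus (4.56% of all genes rose) and 8 of 8 tested in cortex (3.3% of all genes). This comparison shares the WT wells, and the limit set by the filter on low counts, with that of FAD IgG mice. The log2 fold changes in hippocampus were 2.55 ± 0.16 for C1qa, 2.27 ± 0.12 for C1qb, 2.29 ± 0.15 for C1qc, 2.81 ± 0.20 for C4b and 3.26 ± 0.36 for C3. For the receptors they were 3.10 ± 0.24 for C3ar1, 1.73 ± 0.33 for C5ar1, 1.65 ± 0.19 for Itgam and 2.06 ± 0.23 for Itgb2. In cortex they lay between 1.15 ± 0.19 (Itgam) and 3.24 ± 0.22 (C4b). Every FAD CD38 well was above every WT well for 9 of 9 genes in hippocampus (2.17% of all genes tested) and 8 of 9 in cortex (1.6% of all genes tested). The exception was C3, which is not among the genes tested in cortex, at 0.302 to 2.42 CPM in FAD CD38 cortices and 0 to 0.572 CPM in WT.

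The third comparison set hippocampus against cortex of the same mice, with the mouse as a correlated block in limma voom. The components C3 and C4b were higher in hippocampus in all 3 groups. C3 was higher by 2.29 ± 0.31 (log2, adjusted p = 1.73e-07) in FAD CD38 mice, by 2.21 ± 0.29 (adjusted p = 4.25e-08) in FAD IgG mice and by 1.2 ± 0.36 (adjusted p = 0.00954) in WT mice. It was the higher of the pair in hippocampus in 7 of 7 FAD CD38 mice, 7 of 7 FAD IgG mice and 6 of 8 WT mice. The WT call rests on 19 hippocampal and 6 cortical counts in all and was lost without pool 8, 9 or 11 and with the pool left out of the model (adjusted p = 0.0961).

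C4b was higher in hippocampus by 0.57 ± 0.15 (adjusted p = 0.00438) in FAD CD38 mice, by 0.47 ± 0.15 (adjusted p = 0.0190) in FAD IgG mice and by 0.98 ± 0.16 (adjusted p = 6.21e-06) in WT mice. Every mouse of the 3 groups showed that direction (7 of 7, 7 of 7 and 8 of 8). The call in FAD IgG mice was lost without pool 5 (adjusted p = 0.0719) or pool 6 (adjusted p = 0.189). Itgam was higher in hippocampus by 0.50 ± 0.16 (adjusted p = 0.0166) in FAD CD38 mice and by 0.48 ± 0.15 (adjusted p = 0.0147) in FAD IgG mice, and differed by -0.02 ± 0.16 (adjusted p = 0.950) in WT mice. That call was lost without pool 7 or 9 in FAD CD38 mice and without pool 6 in FAD IgG mice (0.30, adjusted p = 0.231).

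Members with lower hippocampal levels were found in WT mice. C3ar1 was lower in hippocampus of WT mice (-0.83 ± 0.18, adjusted p = 0.000350), in 8 of 8 mice. C1qb was also lower there (-0.30 ± 0.10, adjusted p = 0.0210), in 7 of 8 mice, a call lost without pool 5, 8 or 10. In FAD mice neither gene passed the test, with C3ar1 at -0.02 ± 0.14 in FAD CD38 mice and 0.12 ± 0.13 in FAD IgG mice, and C1qb at 0.26 ± 0.11 (adjusted p = 0.0777) and 0.20 ± 0.11 (adjusted p = 0.209). C1qb in FAD CD38 mice passed without pool 8 (0.32, adjusted p = 0.0434) and with quality weights (0.27, adjusted p = 0.0290). Over all genes, 10.6% were higher and 12% lower in hippocampus of FAD CD38 mice, 9.95% and 11.3% of FAD IgG mice, and 13.5% and 13.3% of WT mice, set against 3 and 0, 3 and 0, and 2 and 2 of the 9 members.

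**Figure D4:**
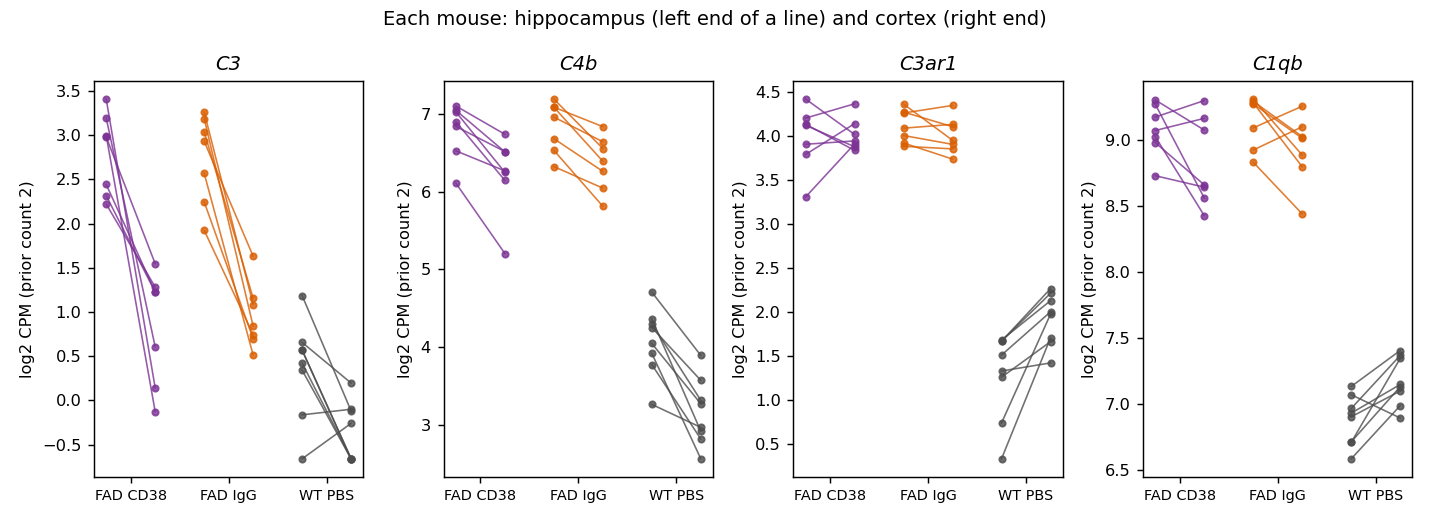
Log2 CPM (prior count 2) of C3, C4b, C3ar1 and C1qb in hippocampus (left end of each line) and cortex (right end) of each mouse, by group. Lines of C4b fall toward cortex in every mouse, and those of C3ar1 rise toward cortex in 8 of 8 WT mice.

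Whether the FAD effect itself differed between regions was tested as hippocampal minus cortical fold change of FAD IgG over WT. No member passed, and 0.208% of all genes did. C3ar1 came nearest, with a difference of 0.95 ± 0.22 (adjusted p = 0.0528), and C1qb had 0.50 ± 0.15 (adjusted p = 0.224). C3 had 1.01 ± 0.45 (adjusted p = 0.588), and C4b ran the other way, at -0.51 ± 0.22 (adjusted p = 0.555). With quality weights per well C3ar1 (1.01, adjusted p = 0.00384) and C1qb (0.49, adjusted p = 0.0278) passed, and without pool 7 C3ar1 passed (1.11, adjusted p = 0.0472). For the CD38 arm against the IgG arm no gene differed between regions (0% of genes, 321 at an unadjusted p under 0.05 by limma voom), and the members' differences lay between -0.14 (C3ar1) and 0.30 (C5ar1).

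The last question was whether the members vary together between mice of the same group. Over the 14 FAD mice, each taken as a deviation from its own group's mean, C1qa in cortex went with C1qb (Pearson r = 0.92, Spearman rho = 0.90, permutation p = 1e-05, the smallest these permutations can give, adjusted p = 0.00016 over 16 relations, and adjusted p = 0.0016 for rho). It went with C1qc too (r = 0.86, rho = 0.85, permutation p = 0.0002, adjusted p = 0.0016, and adjusted p = 0.00792 for rho). Without the 2 mice farthest from the median of C1qa these were r = 0.91 and 0.84. For C3 in cortex r was 0.74 (permutation p = 0.011, adjusted p = 0.0588) and rho 0.72 (adjusted p = 0.0452 by permutation), on 1 to 8 counts per well. For C4b r was 0.48 (adjusted p = 0.222 by permutation) and rho 0.69 (adjusted p = 0.0452).

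In hippocampus no relation of C1qa passed. The value was r = 0.47 for C1qb (rho = 0.35, permutation p = 0.108, adjusted p = 0.217) and r = 0.58 for C1qc (rho = 0.51, permutation p = 0.0249, adjusted p = 0.0795), and without the 2 farthest mice r was 0.25 and 0.35. The other relations of C1qa had r between -0.32 and 0.67 over both regions, and none passed. Between C1qb and C1qc the correlation over all mice of the groups was 0.88 in hippocampus and 0.91 in cortex, and between C1qc and C4b 0.74 and 0.59, given as a description.

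**Figure D5:**
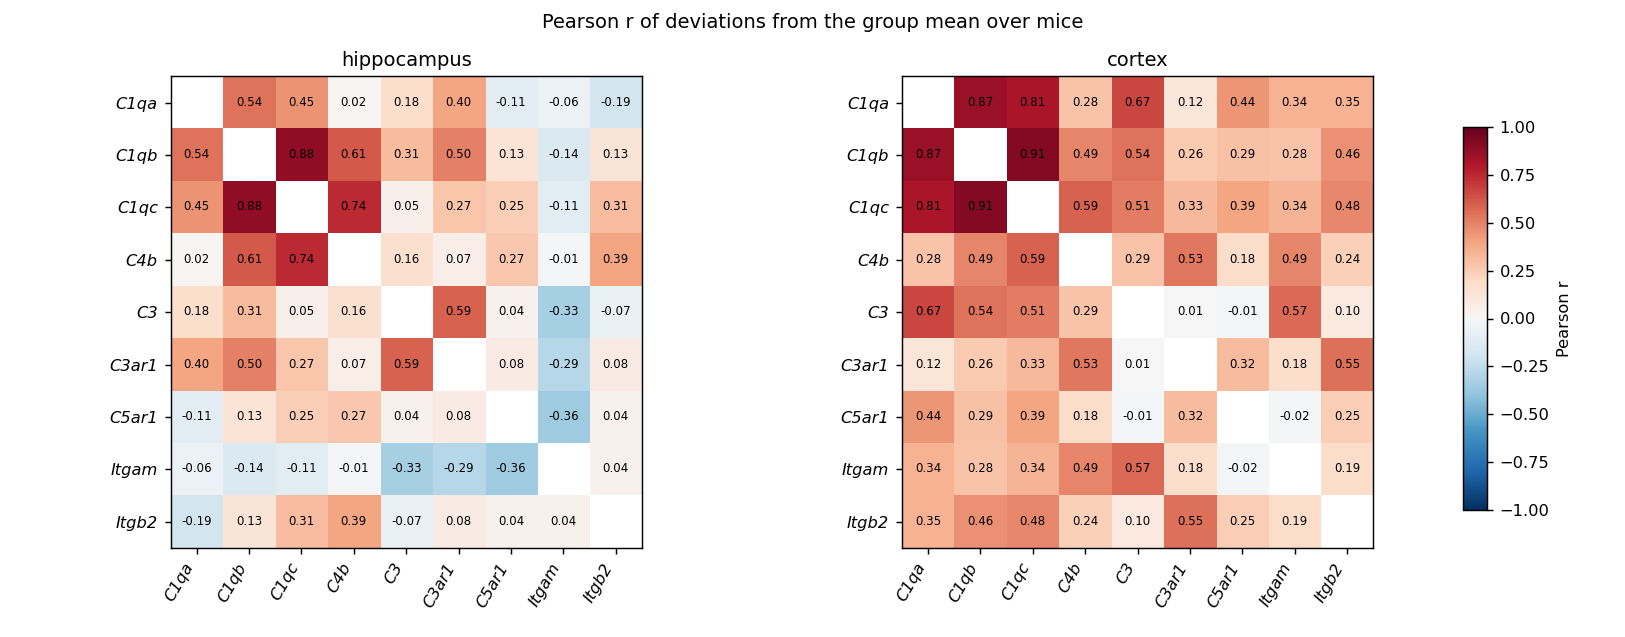
Pearson r between members of log2 CPM deviations from the group mean, over 22 mice in hippocampus (left) and 23 in cortex (right), all 3 groups. C1qb and C1qc have r of 0.88 and 0.91, and C1qa has 0.54 with C1qb in hippocampus and 0.87 in cortex.

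The genes outside the members with the most similar deviations were sought among 12459 genes, by the smaller of the correlations in the 2 regions, over 22 hippocampi and 23 cortices. For C1qc they were Ctsz, a lysosomal protease (r = 0.91 in hippocampus and 0.92 in cortex), Gm49369 (0.89 and 0.89) and Fcer1g, the signalling chain of Fc receptors (0.89 and 0.85). For C1qb they were Trem2 (0.79 and 0.80), Gngt2 (0.81 and 0.78) and Fcer1g (0.78 and 0.82). For C4b they were Anxa3 (0.81 and 0.82), Npc2, a cholesterol carrier of the lysosome (0.79 and 0.76), and Ctss, a microglial cathepsin (0.81 and 0.73). For C1qa they were Ckb, the brain creatine kinase (0.74 and 0.77), Cd37 (0.73 and 0.75) and Zfp771 (0.72 and 0.76).

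For the other members, which have few counts, the highest values were lower. They were Bcas1, Tbc1d10a and Rpl35a-ps3 for C3 (0.44 to 0.60), and Sptlc2, Ifit3 and Necap2 for C3ar1 (0.48 to 0.62). For C5ar1 they were Arhgdig, Pglyrp1 and Cstf1 (0.52 to 0.63), for Itgam Frmd4a, Rbm27 and Simc1 (0.55 to 0.62), and for Itgb2 Hyi, Chil1 and Arhgap30 (0.50 to 0.57). Wells of 1 pool share their library, and these correlations are descriptions without a test.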

How the data were processed

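Bulk mcSCRB-seq was run on cortex and hippocampus of 24 mice, in 47 wells of 7 library pools. The authors deposited raw counts per gene and well, whole numbers that were not normalized, per the file headers and the values. Per the submitters' processing notes the tools included bcl2fastq 2.17 and STAR 2.5.3a. The genome build, the annotation, the counting program and the collapsing of molecular identifiers are, in the sources used here, not given. Group and region of each well came from the sample sheet, matched by well name, and 2 wells of 1 mouse with disagreeing treatment were left out. The least different replicate pair had a chi-square of 2.55 times its degrees of freedom, so none was counted as a repeat. The mouse is the replicate.

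Per region, 1 model over all 3 groups with a term for library pool was run in R 4.3.3 by edgeR 4.0.16, using TMM factors and its robust quasi-likelihood option. Genes had to pass filterByExpr (count minimum 10, total minimum 15). Comparisons over both regions used limma 3.58.1 (voom, with a within-mouse correlation of 0.256). Tests are two-sided, with a threshold of 0.05 on p-values adjusted by Benjamini and Hochberg over all genes tested. Relations used 100000 permutations within groups and log2 CPM with a prior count of 2. DESeq2 1.42.0 was an alternative, with those in the closing section. The scripts were tested on simulated counts. The named genes were the 9 members, the further complement genes that passed a test (1 result is not reported here), a fixed set of check genes, and the 3 most similar genes per member. Members, lists and motifs were chosen with earlier results of these data known. Wells of 1270918 to 5101368 counts leave the rarest members with under 10 counts in many wells, and all intervals of single wells cover counting error only.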

Additional observations from a re-analysis of the deposited data

Results flagged for a closer look

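In 3 of 54 groups of wells (9 genes, 2 regions, 3 groups) 1 well stood far from the others of its group, where chance alone sets apart about 1 in 20. C1qa had 177 CPM in 1 FAD IgG hippocampus (replicate 4), against a median of 124 CPM in that group. C5ar1 had 8.69 CPM in another (replicate 1), against a median of 4.74 CPM. Itgb2 had 4.96 CPM in 1 WT hippocampus (replicate 5), against a median of 2.03 CPM.

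The mouse whose sample sheet and well name disagree on the treatment entered no comparison. Its values lay above the highest WT well for all 9 genes in both regions, and both of its labels give the FAD genotype. In hippocampus it had 133 CPM of C1qa, 577 of C1qb, 389 of C1qc, 146 of C4b and 8.05 of C3, with 19.0 CPM of C3ar1, 4.03 of C5ar1, 15 of Itgam and 9.20 of Itgb2. In cortex it had 149.7 CPM of C1qa, 619 of C1qb, 347 of C1qc, 95.4 of C4b and 1.11 of C3, with 18 CPM of C3ar1, 3.78 of C5ar1, 11.6 of Itgam and 7.78 of Itgb2. Each of these lies between the lowest and the highest well of the 2 FAD groups in its region.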

How the results depend on the processing

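The alternatives were DESeq2, RLE factors, no filter, a mean of 10 counts, no pool in the model, only the 2 groups compared, voom with quality weights, mitochondrial genes left out, ribosomal RNA as a covariate, wells of high ribosomal RNA share left out, the mouse of disagreeing labels put in either FAD group, microglia markers as a covariate (FAD CD38 against FAD IgG only) and each pool left out. Every tested member kept its call against WT in both regions under each of these, and FAD CD38 against FAD IgG gave 0 members and 0 genes under each. With no filter 9 members were tested in cortex and all were called. With only the 2 groups compared, 7 members in cortex and 8 in hippocampus were tested, and called, for FAD CD38 against WT.

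For the difference between regions in the FAD IgG effect 0 members passed, but 2 did with quality weights, and 0 to 1 with a pool left out. Hippocampus against cortex gave 3 members in FAD IgG mice, 1 to 3 with a pool left out, 4 in WT mice, 2 to 5 with a pool left out, and 3 in FAD CD38 mice, 2 to 4 with a pool left out. Over all genes the counts moved more. FAD CD38 against WT called 587 genes in cortex, 365 to 728 with a pool left out, 1386 with the ribosomal RNA covariate and 1147 with quality weights. In hippocampus it called 676, with 374 when only the 2 groups were fitted, 1567 with the covariate, 2756 with quality weights and 1171 once such wells with much ribosomal RNA were dropped. FAD IgG against WT called 502 in cortex, with 806 under quality weights, and 623 in hippocampus, with 1163 under the covariate and 1928 under quality weights. The share of calls that were higher was 72.9% for FAD CD38 against WT in cortex and 59.3% with DESeq2, and 85.8% and 73.5% in hippocampus. For FAD IgG against WT it was 86.3% and 74.4% in cortex, and 91.5% and 81.0% in hippocampus. With quality weights that share was lower, at 56.7% in cortex and 56.3% in hippocampus for FAD CD38, and 63.3% and 61.9% for FAD IgG. With the ribosomal RNA covariate it was 60.8% and 67.5%, and 76.1% and 73.3%, in the same order. The difference between regions called 28 genes, 6 to 29 with a pool left out, 13 without the pool in the model and 383 with quality weights. Hippocampus against cortex in FAD IgG mice called 2853, 1879 to 3026 with a pool left out and 4319 with quality weights. The mean of both regions for FAD IgG against WT called 1082, and 2226 with quality weights. The cause was not tested.

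Of the relations of C1qa 2 passed by Pearson r (4 by Spearman rho), and by Pearson r 2 with a prior count of 0.5 and 3 with the pool effect removed, when Itgb2 in cortex passed too (r = 0.73, permutation, adjusted p = 0.0283). Of single members, 1563 values over all alternatives kept their call, 12 lost and 8 gained a call, and 0 that were called reversed direction. Values called in neither fit were counted as kept even where their sign changed. For FAD CD38 against FAD IgG in cortex, C1qa was -0.11 and ran from -0.31 to 0.04 over the alternatives. The labels give no replicate numbers that groups share. The mouse was the block between regions and the pool a term of each model.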
